A study of Mus musculus with 47 samples.

Results

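NPY-positive neurons of hippocampal area CA1 were compared with those of area CA3, gene by gene, in reads counted from single cells. The comparison took all 3 cells labelled CA1 (N1, N2X and N6) and 13 of the 21 cells labelled CA3 (N26 to N34 and N37 to N40), which makes 16 of the 47 cells deposited. The 13 CA3 cells hold deep neuronal libraries and were those that earlier work on these counts had matched, by their values, to some of the CA3 cells the study displayed, so measured values helped to pick them. The other CA3 cells that the study displayed were not matched, and the other 8 labelled CA3 cells were left out, among them N36, which had 2467435 reads, more than N26 and N28, and reads on Lhx6, Npy and Gad1. Each library came from the cytosol of 1 cell drawn into a patch pipette, reverse transcribed from poly(A) RNA and tagged with the Nextera XT kit. The mice carried a green fluorescent protein that marks cells expressing neuropeptide Y, were 3 to 8 weeks old and, by the study's methods, of both sexes, and the labels name no treatment for either group. The series' design text calls the strain NPY-EGFP and the paper calls it NPY-hrGFP. In such a strain fluorescence shows that the Npy promoter is or has been active. The design text gives 8 mice for the whole series and the labels name none for any cell, so the cells of a region were taken as 1 sample. No test between CA1 and CA3 was therefore made, and SDs describe the spread of cells only. According to the paper the CA3 cells lay in stratum lacunosum-moleculare, while the layer of the CA1 cells was not given in the sources used here. Beside them stand 10 of the 20 cells of the auditory cortex (AC), picked in the same way, and AC below means these 10 cells. Among the AC cells left out N4X resembled N4, 1 of the 10, so closely (chi-square per degree of freedom 2.23, against at least 112 within CA1 or CA3) that they may be 1 cell. N45, with 5265115 reads, was also left out and differed from the 10 in the markers, with 1302 reads on Lhx6, 360 on Alcam and none on Kit. N47 and N48, with 6235022 and 5135021 reads and with reads on Npy, were left out too. Neither had a read on Kit or Lhx6, and N47 had none on Sv2c and N48 none on Parm1.

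Many NPY-positive interneurons of the hippocampus are neurogliaform cells and Ivy cells, small GABAergic neurons with dense axons that act on their targets slowly, by GABA released into the surrounding volume. They arise from separate germinal zones of the embryonic forebrain. Neurogliaform cells of stratum lacunosum-moleculare include cells born in the caudal ganglionic eminence (CGE), where Prox1 and Nr2f1 are used, while Ivy cells and other neurogliaform cells come from the medial ganglionic eminence (MGE), where Nkx2-1 and then Lhx6 are used. Kit, Ndnf, Reln, Lamp5, Sv2c and Nos1 are among the genes by which these classes are commonly told apart.

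Between 601781 and 3202430 reads were counted on genes in a CA1 cell and between 2229519 and 7949918 in a CA3 cell, and 2 of the 3 CA1 cells, N1 and N6, had fewer reads than any CA3 cell. Levels are in CPM, read counts scaled to a total of 1000000 in each cell, and differences are given as the mean of log2(CPM + 1) over the CA1 cells minus that over the CA3 cells, a scale that understates the change of genes read at a few CPM. In CA1 4367, 4949 and 6095 genes were detected with at least 1 read (5137 ± 879, SD, n = 3 cells), against 3679 to 8149 in CA3 (5860.2 ± 1240.2, n = 13). With every cell thinned to 601781 reads the means were 4926 ± 833 and 5366 ± 1188. The ranges overlapped before and after thinning. The numbers in the titles of the CA1 cells and of the CA3 cells do not overlap either, and if the numbers follow the order of collection, order and region cannot be told apart. Reads on Y chromosome genes were found in 3 of 3 CA1 cells and, above 3 reads, in 7 of 13 CA3 cells.

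Reads of other cell types were uneven over the CA1 cells, and their part in the results below was not tested. Of 14 astrocyte markers 6 had no read in the CA1 cells and 8 none in the CA3 cells, and their summed level was 1683, 157 and 317 CPM in N1, N2X and N6 against 0.20 to 660.0 CPM with a median of 37.9 CPM in the CA3 cells. Of the 6 that were read in 3 or more of the 16 cells 3 were at least 2 higher in CA1 and none at least 2 lower, against 13.1% and 17.8% of all genes. The median difference of the 6, 2.38, was the highest of the 36 gene lists described. The 3 were Slc1a2, Aldoc and Slc1a3, which as ratios of summed reads were at -0.89, 1.36 and 6.45. N1 alone held Gfap, the astrocyte intermediate filament, at 588 CPM and Gja1, the astrocyte connexin, at 294 CPM, and both were at 0 in every other CA1 and CA3 cell compared. Aqp4 and Aldh1l1 were at 0 in all 16 cells. The summed level of 12 microglia markers was 778, 0 and 419 CPM against 0.801 to 2468 CPM, that of 16 oligodendrocyte markers 567, 0 and 267 CPM against 0 to 1043 CPM, and that of 14 pyramidal cell markers, a list that holds Prox1 because granule cells use it, 1719.9, 352 and 187 CPM against 0.80 to 1429 CPM. Slc17a7, the vesicular glutamate transporter that defines pyramidal cells, was at 0 in the CA1 cells and reached 13.9 CPM in CA3. Of 10 endothelial and mural cell markers 9 had no read in CA1, and their sum stayed at or below 2.44 CPM there.

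Npy and Gad1 were read in all 16 cells compared, which the choice of the CA3 cells bears on, since of all 21 labelled CA3 cells 14 held reads on each. Npy, which encodes the peptide itself, was read at 1356, 1435 and 2242 CPM in the CA1 cells and from 249.9 to 4684 CPM with a median of 1336 CPM in the CA3 cells, a difference of 0.42. Gad1, the main GABA-synthesizing enzyme, was at 8254, 6936 and 9501 CPM against 2461 to 13031 CPM, a difference of 0.35, or -0.07 as the ratio of summed reads. The CA1 cells lay inside the CA3 range for both genes. Set against all 21 labelled CA3 cells, Npy was 3.91 higher in CA1 and Gad1 4.50 higher. Of 12 GABAergic neuron markers 11 were measured, that is, had reads in 3 or more of the 16 cells, none was at least 2 higher in CA1 and 1 was at least 2 lower, Dlx5, a homeobox factor of GABAergic precursors, with a difference of -2.47. Gad2, the second GABA-synthesizing enzyme, stood at 2318, 2435 and 1888 CPM against 571 to 3109.7 CPM.

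Kit was higher in every CA1 cell than in any CA3 cell, and Lhx6, which had no read in CA1, was read in most CA3 cells. Kit, a receptor tyrosine kinase for stem cell factor (chr5:75574916-75656722, plus strand, GRCm38), was read at 5643, 2516 and 2828 CPM in N1, N2X and N6. It had no read in 11 of the 13 CA3 cells and reached at most 97.8 CPM in the others. Mean levels were 11.74 ± 0.63 (SD, n = 3 cells) in CA1 and 0.89 ± 2.19 (n = 13) in CA3, a difference of 10.86. Over the summed reads of each region Kit stood at 2966 CPM (95% interval 2919 to 3014) over the CA1 cells and 9.19 CPM (8.36 to 10.1) over the CA3 cells, a ratio of 323. Intervals on reads reflect counting error alone, because amplified cDNA gives many reads from 1 molecule. The same holds below for every fold given as at least a value, which sets no limit for other cells of the region. Intervals on shares of cells treat the cells as independent draws, which is not known, since cells may come from the same mouse. The share of CA3 cells with a Kit read was 15.4% (exact Clopper-Pearson 95% interval 1.92% to 45.4%), and that of CA1 cells was 3 of 3, an interval of 29.2% to 100%. In the 10 AC cells Kit was at 571 to 3214 CPM, a range that held N2X and N6 and lay below N1.

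Lhx6, a LIM homeodomain factor of MGE-derived interneurons (chr2:36081953-36105408, minus strand), had no read in any of the 3 CA1 cells. In CA3 it was read in 12 of 13 cells at up to 865 CPM with a median of 271 CPM, and 2 of these cells held less than 1 CPM. The lowest CA3 cell was at 0, so the groups overlapped, with a difference of -6.63. Over the summed reads the level in CA3 was 328 CPM, and with the 3 reads that a count of 0 allows over the CA1 cells Lhx6 was at least 551-fold lower there. None of the 10 AC cells held a read on it. The share of CA1 cells with an Lhx6 read, 0 of 3, has an exact 95% interval that runs up to 70.8%, against 92.3% (64.0% to 99.8%) of the 13 CA3 cells. Of all 21 labelled CA3 cells 13 held Lhx6 reads and 2 held Kit reads.

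**Figure D1:**
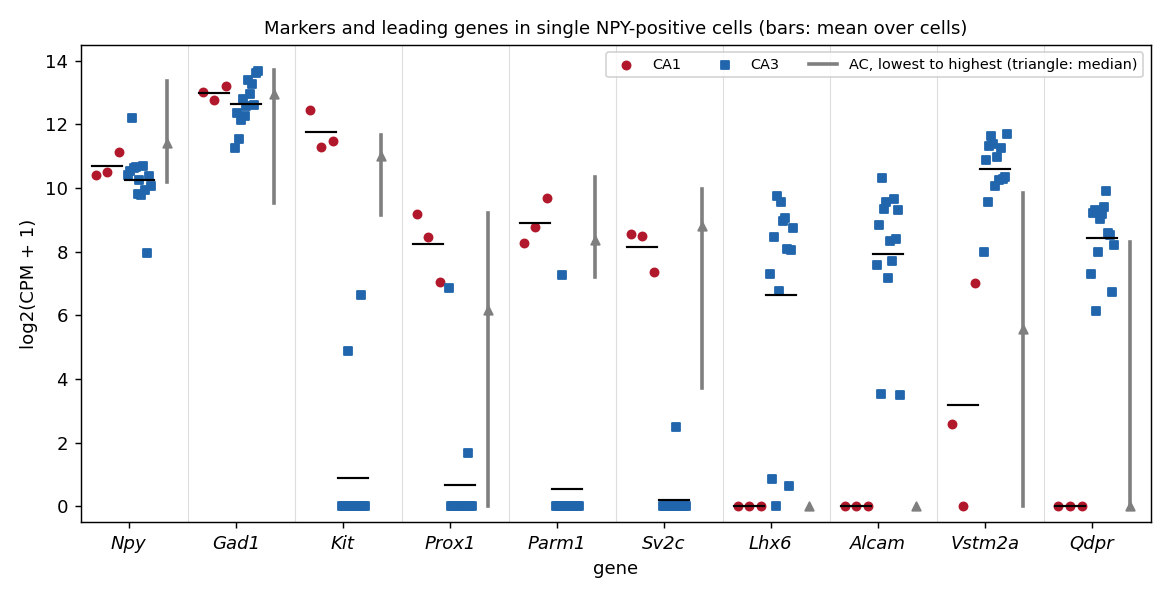
Level of 10 genes in single cells as log2(CPM + 1), with 3 CA1 cells as circles, 13 CA3 cells as squares, means over cells as bars, and the range and median of 10 AC cells as grey lines with triangles. Npy and Gad1 overlap between CA1 and CA3, Kit, Prox1, Parm1 and Sv2c lie higher in every CA1 cell, Alcam, Vstm2a and Qdpr lie lower in every CA1 cell, and Lhx6 is at 0 in CA1 and in 1 CA3 cell.

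The starts of Kit and Prox1, on the CA1 side, and of Lhx6 and Alcam, on the CA3 side, are printed because these genes carried the contrast. Each line gives the 250 bases before the start of the first transcript that RefSeq lists for the gene on GRCm38.p6, 5′ to 3′ along the strand of the gene, in lower case. Capitals mark the GC box GGGCGG, the CCAAT box CCAAT and the TATA box TATAAA, searched together with the LIM homeodomain core TAATTA on both strands, so that a motif on the other strand shows as its reverse complement. No 2 of the marked motifs overlap. The gene positions given elsewhere are from GENCODE, whose starts are not those of RefSeq for all genes, so that by GENCODE the Alcam window lies within the gene and the window of Kit runs past its start.
Kit, chr5:75574737-75574986, plus strand: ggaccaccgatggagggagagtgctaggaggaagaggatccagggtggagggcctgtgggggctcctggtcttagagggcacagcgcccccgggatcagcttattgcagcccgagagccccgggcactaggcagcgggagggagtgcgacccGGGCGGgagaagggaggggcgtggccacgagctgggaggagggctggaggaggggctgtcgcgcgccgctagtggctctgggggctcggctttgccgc
Prox1, chr1:190170828-190171077, minus strand: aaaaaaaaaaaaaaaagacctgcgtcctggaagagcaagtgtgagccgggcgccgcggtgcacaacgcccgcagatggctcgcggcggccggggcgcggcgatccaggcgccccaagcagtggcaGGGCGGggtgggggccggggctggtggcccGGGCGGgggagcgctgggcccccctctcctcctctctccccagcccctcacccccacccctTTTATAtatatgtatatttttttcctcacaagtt
Lhx6, chr2:36105409-36105658, minus strand: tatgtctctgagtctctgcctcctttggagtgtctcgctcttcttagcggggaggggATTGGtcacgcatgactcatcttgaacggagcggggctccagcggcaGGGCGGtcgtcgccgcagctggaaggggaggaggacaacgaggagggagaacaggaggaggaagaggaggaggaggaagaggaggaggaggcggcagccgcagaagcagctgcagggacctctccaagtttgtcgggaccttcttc
Alcam, chr16:52453082-52453331, minus strand: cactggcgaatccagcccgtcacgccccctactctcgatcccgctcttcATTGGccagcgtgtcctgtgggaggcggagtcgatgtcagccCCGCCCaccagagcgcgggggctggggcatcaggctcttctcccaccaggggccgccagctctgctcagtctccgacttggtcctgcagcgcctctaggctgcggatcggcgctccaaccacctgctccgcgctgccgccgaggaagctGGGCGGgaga
All of them hold a GC box, which 32.7% of the 32851 mouse promoter windows of the same length hold. Their G and C content ran from 61.6% in Lhx6 to 70.8% in Kit. A CCAAT box, in 33.8% of windows, is found before Lhx6 and Alcam, and a TATA box, in 12.4% of windows, before Prox1. The core TAATTA, held by 4.84% of windows, is in none of them, which says only that these letters are absent from these windows. RefSeq windows were matched for 11 of the 15 genes that led on the CA1 side, with 20 windows, and for 9 of the 15 on the CA3 side, with 9 windows, and 14 and 7 of these windows hold the GC box.

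Reads on 9879 genes were seen in 3 or more of the 16 cells. Of these, 1299 were at least 2 higher in CA1 on the log2 scale, 13.1% of all genes tested, and 1757 were at least 2 lower, 17.8%. These are counts past a size and not of genes called changed. All 3 CA1 cells lay above all 13 CA3 cells for 32 of the genes at least 2 higher, 0.324%, and below them for 26 of the genes at least 2 lower, 0.263%. Against all 21 labelled CA3 cells the counts without overlap were 19 and 0. With DESeq2's poscounts size factors in place of CPM these counts without overlap were 19 and 49, and the median of all genes moved from -0.34 to -0.50. The gene lists above and below are read against the median of -0.34. Their counts of genes at least 2 higher or lower are read against the 13.1% and 17.8% of all genes. The genes without overlap are described first, by the 15 of largest difference on each side.

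Behind Kit, Parm1 and Sv2c had the largest differences on the CA1 side. Parm1, a mucin-like membrane protein (chr5:91517615-91626894, plus strand), was at 306, 434 and 829 CPM in N1, N2X and N6 and had reads in 1 of 13 CA3 cells, at 151 CPM, a difference of 8.35. Sv2c, a synaptic vesicle glycoprotein that serves as a marker of neurogliaform cells (chr13:95954594-96132577, minus strand), was at 376, 359.7 and 163 CPM against at most 4.64 CPM, with a read in 1 CA3 cell and a difference of 7.95. All 10 AC cells held reads on both, 146 to 1289 CPM for Parm1 and 12.1 to 1002 CPM for Sv2c. Prox1, the homeodomain factor of CGE-derived interneurons and of dentate granule cells (chr1:190118035-190170714, minus strand), was at 579.9, 351 and 131 CPM, while 2 CA3 cells held it at up to 115 CPM. Its difference was 7.57, and the lowest CA1 cell, N6, lay only just above the highest CA3 cell. Summed over cells Prox1 stood at 325 CPM (95% interval 309 to 341) over the CA1 cells and 5.40 CPM (4.77 to 6.10) over the CA3 cells, a ratio of 60.1.

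Pld4, an endolysosomal exonuclease of the phospholipase D family (chr12:112760655-112768990, plus strand), was the single one of these 15 genes without a read in any CA3 cell. It was at 178, 156 and 115 CPM in the CA1 cells, which with 3 reads allowed over the CA3 cells is at least 2423-fold higher by counting error alone. Pld4 passed the filter of reads in 3 or more cells through the CA1 cells alone. In AC only 1 of 10 cells held it. Ikbkb, the kinase that releases NF-kappaB from its inhibitor, was almost even over the CA1 cells at 349, 354 and 327 CPM and was read in 3 CA3 cells at up to 93.3 CPM, a difference of 7.35. Sgms1, which makes sphingomyelin, was at 445, 687 and 648 CPM against at most 105 CPM, a difference of 7.07. Both genes had a median of 0 CPM in AC. Lrrc8b, a subunit of volume-regulated anion channels, was at 520.1, 1014 and 437 CPM and in CA3 at 6 of 13 cells with a highest value of 392 CPM, a difference of 7.01.

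Other genes of the 15 included Lingo2, Dscaml1 and Sptbn4. Lingo2, a leucine-rich repeat protein of the neuronal surface, was at 194, 326 and 319 CPM against at most 51.1 CPM in CA3, a difference of 7.05. Dscaml1, a homophilic adhesion molecule of the immunoglobulin superfamily, was at 495, 594 and 376 CPM and was read in 6 CA3 cells at up to 308 CPM. Sptbn4, the beta-IV spectrin of the axon initial segment, was at 289, 378 and 115 CPM against up to 71.7 CPM. These genes were thus present in every CA1 cell and in a minority of CA3 cells, at lower levels. Mmp17, a membrane-anchored matrix metalloproteinase, was at 467, 345 and 262 CPM against up to 157 CPM, and Slc36a4, an amino acid transporter, at 48.2, 153 and 328 CPM against up to 1.29 CPM. The remaining members of the 15 were the less characterised genes 2010111I01Rik, with a difference of 7.79, and D230025D16Rik, with 6.64. Among the other 17 genes without overlap were Thrb, a thyroid hormone receptor, at 269, 319 and 309.7 CPM against up to 262 CPM, and the row Pcdhg, named for the gamma-protocadherins, at 1253, 862 and 620.1 CPM against 6.0 to 525 CPM, the smallest difference of the 32 at 2.09.

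On the CA3 side Qdpr, Alcam and Qpct were read in all 13 CA3 cells and in no CA1 cell. Qdpr, the dihydropteridine reductase that regenerates tetrahydrobiopterin (chr5:45434021-45450236, minus strand), ran from 68.5 to 953 CPM with a median of 379 CPM, a difference of -8.42. Alcam, a homophilic adhesion molecule of growing axons (chr16:52248996-52454074, minus strand), ran from 10.2 to 1270.0 CPM with a median of 335 CPM, a difference of -7.94. Qpct, which forms the N-terminal pyroglutamate of peptides (chr17:79051906-79090378, plus strand), ran from 5.20 to 757 CPM with a median of 279.9 CPM, a difference of -7.64. With 3 reads allowed over the CA1 cells these genes were at least 702-fold, 773-fold and 484-fold lower there. Alcam was also at 0 in all 10 AC cells, and Qdpr and Qpct were each read in 4 of them. Of the 8 labelled CA3 cells left out, 7 held Alcam reads, but N13, N15, N18 and N22 held only 2 or 3 of them. N36 alone of the 8 held reads on Npy and Gad1. Among the AC cells left out, N10, without a read on Npy or Gad1, held 103 Alcam reads.

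Vstm2a, a secreted immunoglobulin-domain protein (chr11:16257724-16427310, plus strand), had the highest CA3 median of the 15 genes on this side. It ran from 251 to 3331 CPM with a median of 1859.6 CPM in CA3 and stood at 4.99, 0 and 128 CPM in N1, N2X and N6, a difference of -7.39. Summed over cells it was 1848 CPM in CA3 and 31.8 CPM in CA1, 58.1-fold lower. Epha5, an ephrin receptor of axon targeting, was at 0, 12.2 and 0 CPM against 62.5 to 904 CPM, a difference of -6.81. Rit2, a neuronal Ras-like GTPase, was read in N6 alone of the CA1 cells, at 93.5 CPM, against 164 to 1028 CPM in CA3. All 3 genes of this group were thus without a read in at least 1 CA1 cell and present in every CA3 cell.

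The other members on this side work in the nucleus, the ribosome and the mitochondrion of most cells. Tceb1 (elongin C) had a difference of -6.04, Trim35 (a ubiquitin ligase) of -5.66, Taf10 (a subunit of the general transcription factor TFIID) of -5.35, Rps4x (a protein of the small ribosomal subunit) of -5.24 and Puf60 (a splicing factor) of -4.13. Ndufa13, a subunit of respiratory complex I, had a difference of -4.21, and the mitochondrial proteins Chchd10 and Chchd1 of -3.94 and -3.90. In all of these genes but Chchd10, N2X had no read, while N1 and N6 held 0 to 101 CPM. Without N1 the difference of Chchd10 was -1.62, and without N2X that of Puf60 was -1.95. Gm10053, with -4.03, carries a predicted-gene name and may share reads with a near-identical gene, so its value is uncertain.

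**Figure D2:**
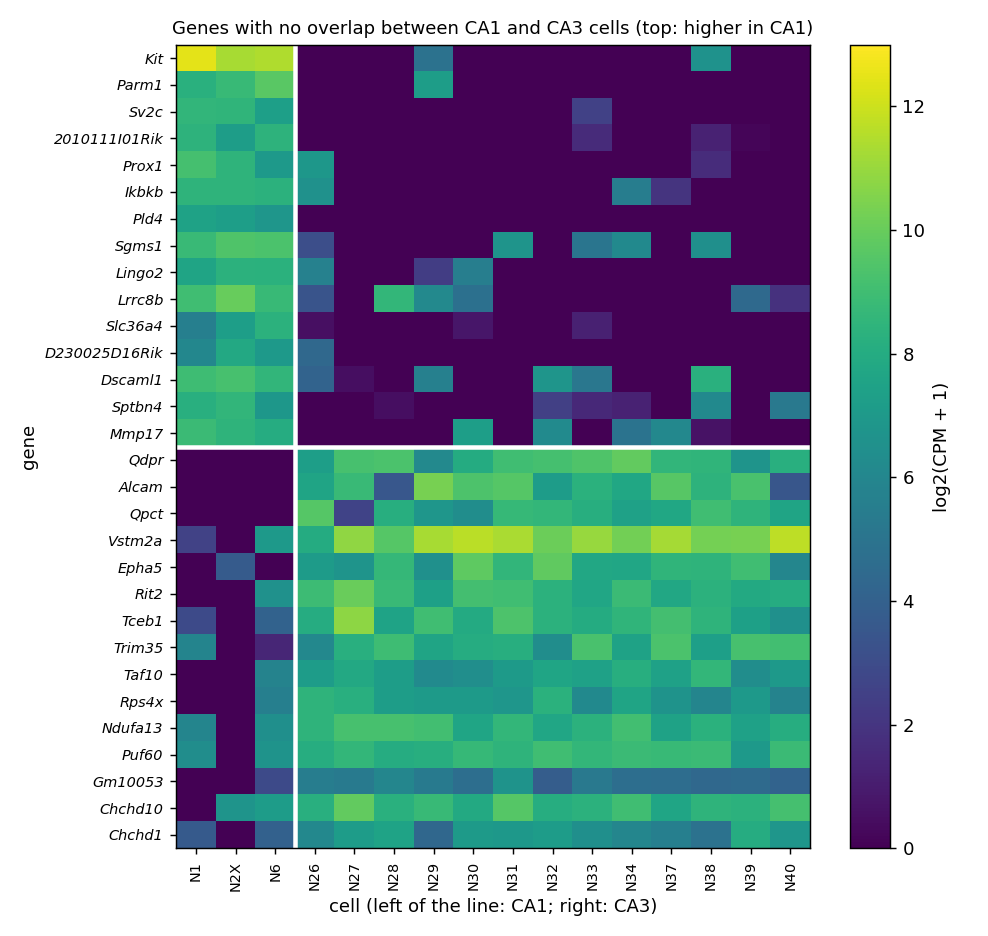
Level of the 30 genes that lead the contrast, 15 on each side and all without overlap, as colour on a log2(CPM + 1) scale, in 3 CA1 cells (left) and 13 CA3 cells (right). The upper block is read in every CA1 cell and at 0 in most CA3 cells, and the lower block is read in every CA3 cell and at 0 in 1 or more CA1 cells for all genes, N2X lacking all of them but Epha5 and Chchd10.

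The neurogliaform and Ivy cell markers stood higher in CA1 as a list but were split. Of 18 genes 15 were measured, 7 were at least 2 higher and 3 at least 2 lower, against 13.1% and 17.8% of all genes. The median difference was 1.76 against -0.34 for all genes. Besides Kit and Sv2c, Ndnf, a secreted neurotrophic factor of layer 1 interneurons, was at 119.6, 127 and 749 CPM in CA1 and was read in 1 of 13 CA3 cells, at 671 CPM, a difference of 7.10, or 2.65 as the ratio of summed reads. The single positive CA3 cell lay within the range of the CA1 cells, so the groups overlapped. Cplx3, a complexin, was at 259, 476 and 676 CPM against up to 522 CPM in 8 cells, and Reln, the matrix glycoprotein reelin, at 4874, 842 and 479 CPM against up to 1048 CPM in 11 cells, where its difference of 3.71 was 1.95 as the ratio of summed reads. Lamp5, a membrane protein that marks cortical neurogliaform cells, was at 2202, 791 and 1252 CPM against 0 to 1833 CPM, a difference of 1.76. Nos1, the neuronal nitric oxide synthase typical of Ivy cells, went the other way, with no read in CA1 and reads in 10 of 13 CA3 cells at up to 386 CPM. Its difference was -5.28, at least 218-fold lower in CA1 over the summed reads by counting error alone, and 7 of 10 AC cells held it. Id2, an inhibitor of helix-loop-helix factors, was at 464, 279 and 875 CPM against 591 to 8824 CPM, a difference of -2.40, with -0.59 against all 21 labelled CA3 cells.

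Of 10 MGE lineage factors 7 were measured, with a median of -0.51. Of these 1 was at least 2 higher and 1 at least 2 lower, near the 13.1% and 17.8% of all genes. Nkx2-1, which acts before Lhx6, was at 0 in CA1 and at up to 38.7 CPM in 6 CA3 cells, a difference of -1.36. Tox3, an HMG-box factor counted with the MGE list, was higher in CA1, at 181, 94 and 105 CPM against up to 218 CPM and a difference of 4.26, or 1.11 as the ratio of summed reads. Of 14 CGE and preoptic lineage genes 8 were measured, with a median of 1.11. Of these 2 were at least 2 higher and none at least 2 lower, against 13.1% and 17.8% of all genes. The 2 were Prox1 and Egfr, whose difference of 2.02 was 0.38 without N6 and 0.51 as the ratio of summed reads. The summed level of the list was 1853, 375 and 2305 CPM in N1, N2X and N6 against 493 to 1847 CPM, so that N2X lay below all CA3 cells. Nr2f1, a nuclear receptor of the CGE, was at 66.5, 0 and 0 CPM, and Adarb2, an RNA-binding protein of CGE-derived cells, at 273, 0 and 423 CPM against up to 310.0 CPM. Their differences were -0.22 and 0.89. For Adarb2 a single cell decided the value, with -0.36 without N1, 3.69 without N2X and -0.67 without N6, and against all 21 labelled CA3 cells it was 2.34. Among 18 markers of other interneuron classes only 5 were measured. Cnr1, the cannabinoid receptor of cholecystokinin interneurons, was at 1313, 399 and 65 CPM in CA1 and in CA3 was read in 3 cells, of which the highest held 3091 CPM, more than any CA1 cell. Its difference of 6.83 became 1.02 as the ratio of summed reads. Calb1, calbindin, was at 0 in CA1 and at up to 571 CPM in 4 CA3 cells.

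Among the glutamate receptor genes the kainate receptor subunits Grik1 and Grik2 lay past 2 on the CA1 side, while Grik5, another of them, had a difference of -1.13. Of 16 NMDA, kainate and delta receptor genes 13 were measured, 3 were at least 2 higher, none was at least 2 lower, and the median was 0.98. Grik1 was at 2328, 919 and 477 CPM against up to 659 CPM in 11 CA3 cells, a difference of 3.75. The CA1 cell N6 lay inside the CA3 range, while N1 and N2X lay above it. Grik2 was at 319, 30.9 and 146 CPM against a CA3 median of 1.16 CPM, and Grin1, the obligatory NMDA receptor subunit, at 306, 317 and 82.1 CPM against a median of 29.1 CPM. As ratios of summed reads Grik2 and Grin1 differed by 1.39 and 0.86. Among 20 AMPA receptor subunits and auxiliary subunits, 17 of them measured, 2 were at least 2 higher and 1 at least 2 lower, with a median of -0.07. Gria1 was at 284, 294 and 483 CPM against 28.1 to 1567 CPM and Gria2 at 548, 2.19 and 441 CPM against 0.232 to 896 CPM, differences of -0.03 and -0.07. Gria3 was higher, with 105, 327 and 0 CPM against reads in 4 CA3 cells at up to 157 CPM, and Olfm2, a secreted AMPA receptor partner, was lower, with 0, 46.2 and 0 CPM against up to 411 CPM in 11 cells. Gsg1l, an auxiliary subunit, had its difference of 2.19 from N6 alone and was at -0.79 without that cell. Of 8 metabotropic glutamate receptors 2 were measured, and Grm5 was at 204, 921 and 353 CPM against up to 918 CPM.

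The GABA receptor genes had subunits on both sides while the list as a whole stayed level. Of 21 genes 15 were measured, 4 were at least 2 higher and 5 at least 2 lower, against 13.1% and 17.8% of all genes. The median was -0.33 against -0.34 for all genes, or, relative to all genes, -0.58 to 0.01 over the other scalings. Gabra4, an alpha subunit of extrasynaptic receptors, was at 964, 1449 and 147 CPM in CA1 against up to 269 CPM in 6 CA3 cells, a difference of 5.84. Gabrb2 was at 636, 240.1 and 571 CPM against up to 368 CPM, a difference of 4.84, and Gabra2 at 344, 196 and 0 CPM against at most 9.27 CPM. Gabrg3 went the other way, with no read in CA1 against 249 CPM at the CA3 median and reads in 11 of 13 cells. Its difference was -6.75, at least 421-fold lower over the summed reads. Gabrd, the delta subunit of tonic inhibition in neurogliaform cells, was at 266, 0 and 0.813 CPM against reads in 11 CA3 cells at up to 603 CPM, a difference of -3.50, or -1.04 against all 21 CA3 cells. N1 was the only CA1 cell to hold Gabrd at a level within the CA3 cells that express it.

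Receptors for neuromodulators were read in few cells. Of 47 such genes 15 were measured, with a median of 0.88. Of these 5 were at least 2 higher and 1 at least 2 lower, against 13.1% and 17.8% of all genes. Hrh1, the histamine H1 receptor, was at 311, 0 and 174 CPM against reads in 2 CA3 cells, and Chrna4, a nicotinic subunit, at 39.9, 0 and 71.5 CPM against 2 cells at up to 23.1 CPM. Adrb1, the beta-1 adrenoceptor, was even over the CA1 cells at 48.2, 65.9 and 45.5 CPM and ran up to 77.4 CPM in 9 CA3 cells. Both were past 2 in their difference, and as ratios of summed reads Hrh1 and Adrb1 were at 0.23 and 1.21. Htr7, a serotonin receptor, had no read in CA1 and up to 233 CPM in 6 CA3 cells. Htr2a, the serotonin receptor on which the study's pharmacology turned, was read in 1 CA1 cell, at 0.813 CPM, and in 2 CA3 cells at up to 127 CPM. Such levels in N1 and N6 rest on libraries of fewer reads than any in CA3.

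Of 27 precursors, Npy included, 10 were measured, none was at least 2 higher and 2, Chga and Scg2, were at least 2 lower, a share near the 17.8% of all genes, and 3 lay above 0 and 7 below, with a median of -1.10. Their summed level, 2426, 3327 and 2775 CPM, lay within the CA3 range of 1655 to 6928 CPM, whose median was 2773 CPM. Chga, the chromogranin of dense-core vesicles, had no read in CA1 and was read in 12 of 13 CA3 cells at up to 313 CPM, a difference of -6.43 and at least 278-fold lower over the summed reads. Scg2, secretogranin II, was at 83.1, 973 and 0 CPM against 70.4 to 3123 CPM. Its difference of -2.86 rested on N6 and was -0.14 without it. Of 26 neuropeptide receptors 5 were measured, with a median of -1.49, and Nmbr, the neuromedin B receptor, had no read in CA1 and up to 484 CPM in 8 CA3 cells.

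Of 57 potassium channel genes 44 were measured, 12 at least 2 higher and 4 at least 2 lower, against 13.1% and 17.8% of all genes, with a median of 0.01, or 0.35 relative to all genes. Kcnip1, a Kv4 channel subunit, was at 409, 781 and 12.2 CPM against reads in 4 CA3 cells, Kcnj9, a G protein-gated channel, at 321, 14.1 and 121 CPM against 4 cells, and Kcna3 at 402, 109.6 and 152 CPM against a median of 8.76 CPM. Each of these overlapped with CA3, and as ratios of summed reads Kcnj9 and Kcna3, with differences of 4.43 and 4.30, were at 1.34 and 1.87. Kcnk12, a leak channel subunit, was read in N1 and N6 at 143 and 54.5 CPM and in 1 CA3 cell at 0.469 CPM. Kcnb2 and Kcnmb2 had no read in CA1 and were read in 8 and 5 CA3 cells. Of 29 sodium, calcium and HCN channel genes 24 were measured, 4 in each direction past 2, near the shares of all genes, and a median of 0.13, or 0.47 relative to all genes. Cacna1g, a T-type calcium channel, was at 239, 147 and 67.5 CPM against up to 128 CPM with a median of 0.40 CPM, a difference of 5.33. Cacnb3, a calcium channel beta subunit, was lower, at 0, 0 and 41.5 CPM against a median of 58.1 CPM.

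Of 48 neurexins, contactins and other synaptic adhesion genes, a list without Lingo2, Dscaml1 and Pcdhg, 41 were measured, 6 were at least 2 higher and 14 at least 2 lower, against 13.1% and 17.8% of all genes, with a median of -0.69. Beside Alcam, Ncam1, the neural cell adhesion molecule, was read in 1 CA1 cell at 5.69 CPM and in 12 of 13 CA3 cells with a median of 166 CPM. Cntn1, contactin-1, was at 0, 3.43 and 109.7 CPM against 15.7 to 859 CPM, and Opcml, an IgLON protein, at 1.66, 65.3 and 0 CPM against a median of 269 CPM, differences of -4.94 and -4.22. Cadm1, a synaptic adhesion molecule, had the largest difference of this list on the CA1 side, at 1165, 398 and 367 CPM against up to 486 CPM, a difference of 5.50 and 1.97 as the ratio of summed reads. Ptprs, a receptor phosphatase of presynaptic terminals, was at 186, 658 and 22.8 CPM, a difference of 3.19. Of 26 cadherins 13 were measured, 1 past 2 on the CA1 side and 3 on the CA3 side. Pcdh8, Cdh9 and Pcdh19 had no read in CA1 and were read in 8, 6 and 7 CA3 cells.

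Guidance and matrix genes had members on both sides. Of 51 axon guidance genes 32 were measured, with a median of -0.29. Of these 8 were at least 2 higher and 3 at least 2 lower, against 13.1% and 17.8% of all genes. Sema6a, a transmembrane semaphorin, was at 176, 588 and 31.7 CPM against reads in 2 of 13 CA3 cells, a difference of 6.25. Robo2, a Slit receptor, was at 168, 361 and 560.0 CPM against a median of 6.42 CPM, and Sema5a at 204, 279 and 664 CPM against a median of 33.6 CPM, a difference of 4.30 and 1.84 as the ratio of summed reads. Sema6d had no read in CA1 and a median of 80.6 CPM in CA3, and Sema3c, a secreted semaphorin, was read in N6 alone of the CA1 cells, at 262 CPM, against a median of 417 CPM. The differences of these genes were -5.52 and -5.04. Of 43 collagens and matrix genes 21 were measured, with a median of 0.69. Past 2 were 5 higher and 3 lower, against 13.1% and 17.8% of all genes. Col25a1, a transmembrane collagen, had no read in CA1 and was read in 11 CA3 cells at up to 769 CPM, at least 456-fold lower in CA1, and none of the 10 AC cells held it. Tnr, tenascin-R of perineuronal nets, had no read in CA1 and up to 172 CPM in 11 CA3 cells. Timp2, a metalloproteinase inhibitor, was at 686, 263 and 295 CPM against a median of 50.1 CPM, a difference of 3.60 that was 0.50 as the ratio of summed reads.

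**Figure D3:**
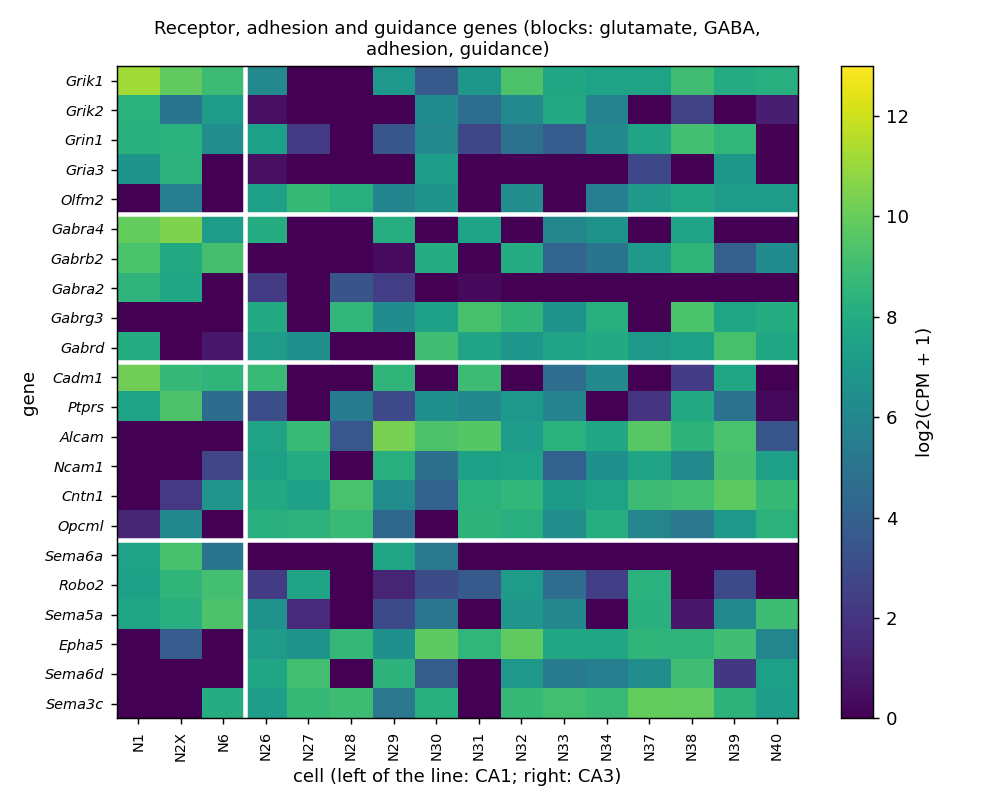
Level of 22 glutamate receptor, GABA receptor, adhesion and guidance genes as colour on a log2(CPM + 1) scale in 3 CA1 cells (left) and 13 CA3 cells (right). In every block some genes are read in all or most CA1 cells and few CA3 cells, such as Gabra4 and Sema6a, and others the reverse, such as Gabrg3, Alcam and Sema6d.

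Genes of transmitter release and calcium binding had members on both sides. Of 54 synaptic vesicle release genes 44 were measured, with a median of 0.33. Of these 8 were at least 2 higher and 4 at least 2 lower, against 13.1% and 17.8% of all genes. The active zone proteins Rims1, at 658, 206 and 558 CPM against a median of 45.5 CPM, and Rims2, at 131, 226 and 37.4 CPM against a median of 4.93 CPM, were on the CA1 side, and Erc1, their partner, on the CA3 side, at 8.31, 0 and 0 CPM against a median of 149 CPM. Rab3b, a vesicle GTPase, was at 78.1, 0 and 154 CPM against 9.69 to 1385 CPM, a difference of -3.59 that was -1.32 without N2X. Of 28 calcium-binding genes 23 were measured, with a median of 0.53. Past 2 were 5 higher and 4 lower, against 13.1% and 17.8% of all genes. Their summed level was 7498, 6067 and 9892 CPM in N1, N2X and N6 against 8270 to 15826 CPM in CA3. By this sum N1 and N2X lay below every CA3 cell, unlike the median. Necab1 was at 781, 528 and 415 CPM and was read in 3 CA3 cells at up to 552 CPM, a difference of 7.54. Its relative Necab2 was read in N6 alone of the CA1 cells and in 12 CA3 cells with a median of 289 CPM, a difference of -4.98. Ncald, neurocalcin delta, was at 2295, 957 and 2227 CPM against a median of 489.6 CPM, a difference of 2.45 and 1.37 as the ratio of summed reads. Of 9 copines 4 were measured: Cpne7, at 33.2, 339 and 144 CPM against reads in 2 CA3 cells, had a difference of 5.93 and Cpne8, at 0, 1.25 and 32.5 CPM against reads in 12 cells, one of -3.82, while Cpne6 was at 113, 185 and 562 CPM against a median of 251 CPM. Against all 21 labelled CA3 cells Cpne7 was at 6.30 and Cpne8 at -1.57.

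Of 28 Kit, Erbb and neurotrophin signalling genes 13 were measured, 4 at least 2 higher, none at least 2 lower and a median of 1.65. Kit ligand, Kitl, had no read in any of the 16 cells. Ntrk2, the receptor of brain-derived neurotrophic factor, was at 701, 490.3 and 409 CPM against up to 697 CPM in 12 CA3 cells, and Alk, a receptor tyrosine kinase, at 36.6, 129 and 7.32 CPM against reads in 3 cells. The difference of Ntrk2 was 2.87, or 1.11 as the ratio of summed reads. Of 12 insulin-like growth factor genes 6 were measured. Igfbp4, a binding protein, had no read in CA1 or AC and was read in 10 CA3 cells at up to 988 CPM, at least 600.4-fold lower in CA1, while Insr, the insulin receptor, was at 138, 117 and 258 CPM against a median of 1.58 CPM, a difference of 4.45 and 1.69 as the ratio of summed reads. Of 15 nitric oxide and cGMP genes 9 were measured, 2 past 2 higher and 3 lower: Nos1ap, an adaptor of Nos1, was at 399, 0 and 134 CPM against reads in 2 CA3 cells, and Gucy1a3, a subunit of the nitric oxide receptor, had no read in CA1 and reads in 4 CA3 cells. Of 32 G protein and RGS genes 29 were measured, with a median of -1.09. Of these 1 was at least 2 higher and 8 at least 2 lower, against 13.1% and 17.8% of all genes. Gnb4 was at 508, 212 and 61 CPM against a median of 0.319 CPM, a difference of 4.26 that was 0.92 as the ratio of summed reads, and Rgs2 and Gng4 had no read in CA1 and were each read in 7 CA3 cells. Gnb5, which pairs with RGS proteins, was read in N6 alone of the CA1 cells and in all 13 CA3 cells, with a median of 208 CPM.

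Activity and stress genes were read in both regions. Of 22 immediate early genes 16 were measured, 1 at least 2 higher and 5 at least 2 lower, with a median of -0.66, and the summed level was 1120.0, 7708 and 1497 CPM against 474 to 5728 CPM, so that N2X lay above all CA3 cells. Fos was at 495, 851 and 519 CPM against 10.7 to 2077 CPM, and Ier2 at 43.2, 226 and 46.3 CPM against reads in 6 CA3 cells, a difference of 3.63 and 1.94 as the ratio of summed reads. Of 14 heat shock and chaperone genes 12 were measured, 1 of them at least 2 lower, Hsph1, at -2.63 and at -1.48 without N1 and -1.48 without N2X, and the median was -0.34.

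Complex I, ribosomal protein and mitochondrial genome genes had medians below that of all genes. Their counts stand beside 13.1% of all genes at least 2 higher and 17.8% at least 2 lower. All 37 complex I genes were measured, none was at least 2 higher and 16 were at least 2 lower, with a median of -1.74. The summed level was 4549.8, 4275 and 4605 CPM in N1, N2X and N6 against 5992 to 16231 CPM in CA3, without overlap, and 2021 to 6904 CPM in AC. Ndufa13, Ndufa12 and Ndufa5 did not overlap, with differences of -4.21, -3.84 and -2.47. Without N2X they were at -2.14, -1.84 and -2.21, and against all 21 labelled CA3 cells at -3.25, -3.12 and -1.13. Ndufs1 showed how single cells set such values, with 0, 785 and 0 CPM in the CA1 cells and a difference of -4.19 that was 0.49 as the ratio of summed reads. Of 83 ribosomal protein genes 80 were measured, none at least 2 higher and 21 at least 2 lower, with a median of -1.08 and sums of 5331, 5820.0 and 7097 CPM against 5804 to 19855 CPM, which overlapped. Many ribosomal protein genes have processed copies in the genome, so counts of single members are uncertain. All 15 genes of the mitochondrial genome were measured, none was at least 2 higher and 9 were at least 2 lower, with a median of -2.27. Here N2X stood apart, with 391 CPM in all against 10823 in N1, 12732 in N6 and 3714 to 22290.5 CPM in CA3. Without N2X the differences of mt-Co1 and mt-Nd1, -3.71 and -3.17 over all cells, became -0.15 and 0.27.

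**Figure D4:**
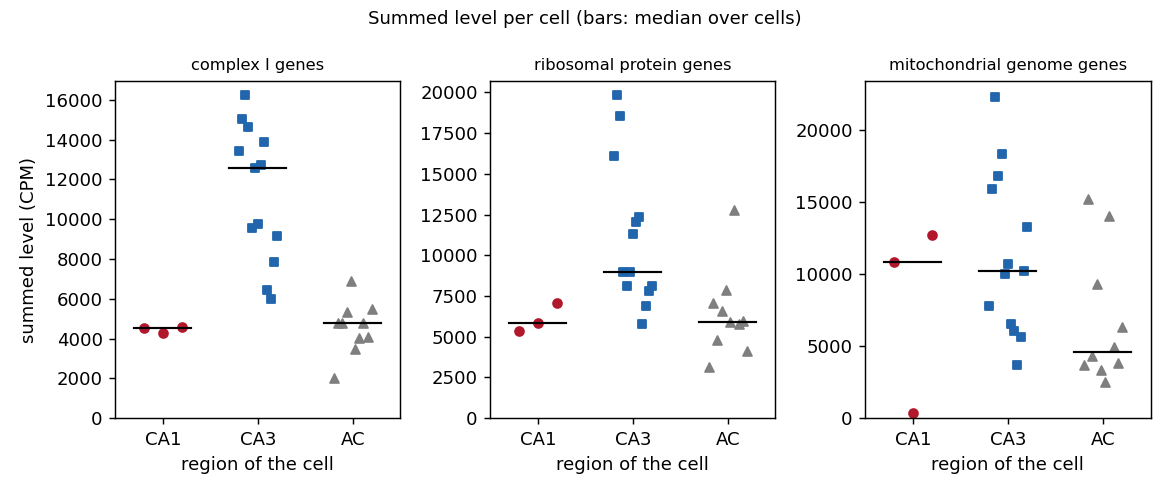
Summed level in CPM of 37 complex I genes, 83 ribosomal protein genes and 15 genes of the mitochondrial genome in 3 CA1, 13 CA3 and 10 AC cells, with medians as bars and axes from 0. For complex I every CA1 cell lies below every CA3 cell, for ribosomal proteins the ranges overlap, and for the mitochondrial genome N2X lies far below all other cells.

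Over all genes, transcript length moved with the differences. The 9374 genes with a GENCODE transcript length were divided by it into 4 groups of 2343 or 2344, and the median difference went from -0.68 in the shortest group, with a median length of 812 bases, over -0.46 and -0.24 to 0.05 in the longest, with 4656 bases. With all cells thinned to 601781 reads the medians were -0.65, -0.44, -0.24 and 0.06. The complex I genes had a median length of 704 bases and the ribosomal protein genes of 696, within the shortest group, while the neurogliaform and Ivy cell markers had 3880.5 and the NMDA, kainate and delta receptor genes 4439.5, within the longest group. Relative to all genes, the lists with a median length in the longest group ran from -0.35 for the synaptic adhesion genes to 2.10 for the neurogliaform and Ivy cell markers. The part of length in these results was not tested. Within AC, cells with title numbers below 10, as in CA1, stood above those with numbers above 40 by 0.38 in the shortest group and 1.04 in the longest.

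**Figure D5:**
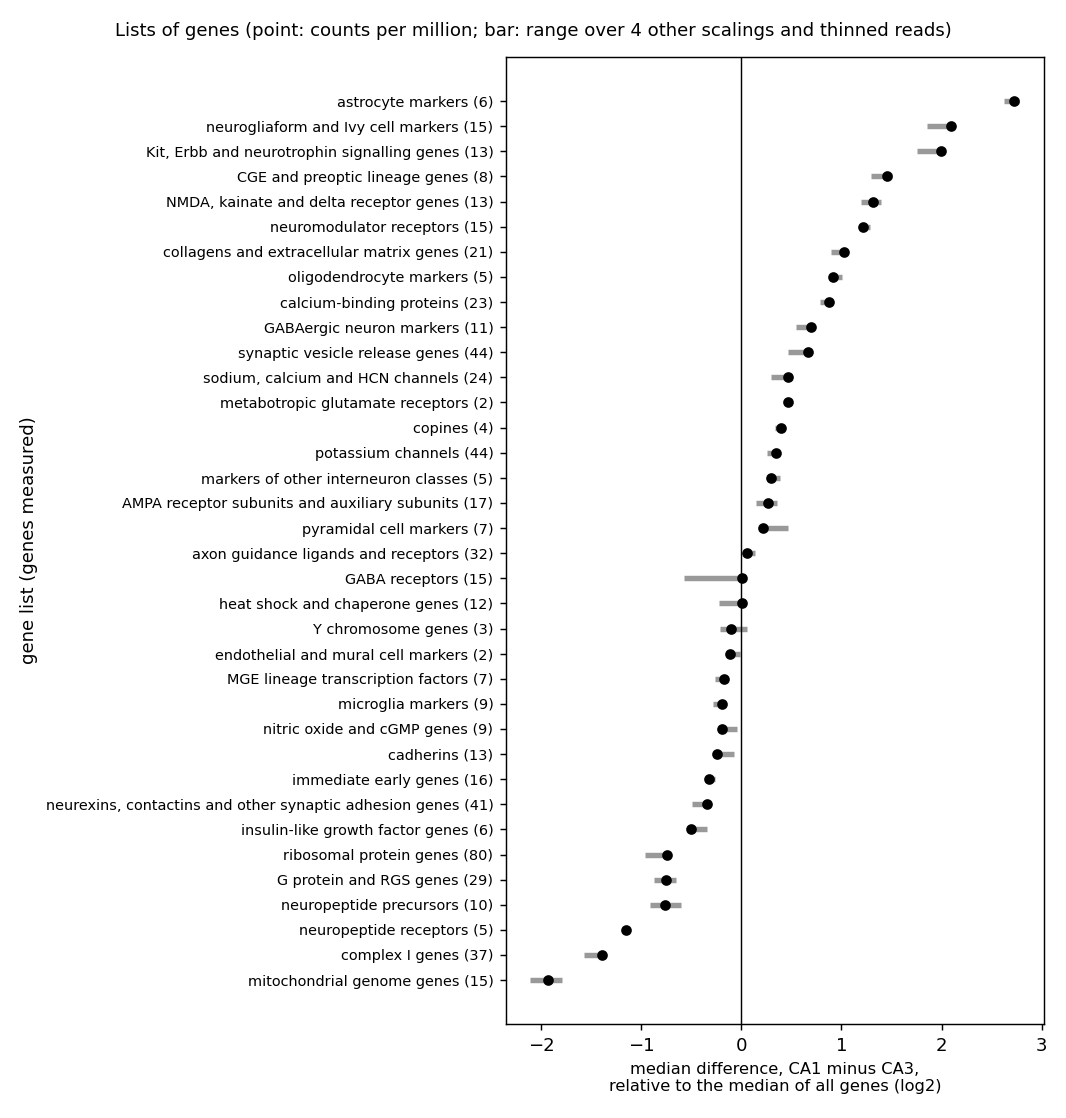
Median difference between CA1 and CA3 of 36 gene lists on the log2(CPM + 1) scale, relative to the median of all 9879 genes at 0, with the number of genes measured in brackets and grey bars for the range over 4 other scalings and thinned reads. The neurogliaform, CGE and NMDA and kainate receptor lists lie to the right, together with the astrocyte markers, complex I and mitochondrial genome genes to the left, and the GABA receptors, heat shock genes and Y chromosome genes lie on both sides of 0 depending on the scaling.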

How the data were processed

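Reads were counted in single NPY-positive neurons of CA1 (3 cells) and CA3 (13 cells). The authors deposited 1 table of raw counts of 22800 gene symbols in 47 cells, all whole numbers. The paper's methods name Trimmomatic and Flexbar for trimming, STAR for alignment to the Ensembl GRCm38 build and HTSeq for counting, and say that Ensembl identifiers sharing a symbol were averaged. The submitters' processing notes name featureCounts as the counter. Strand use in counting was not given in the sources used here. Counts were scaled to CPM and set on log2(CPM + 1). Genes read in 3 or more of the 16 cells were compared (9879). A difference of at least 2 (4-fold) is counted, and no overlap means that all CA1 cells lie on 1 side of all CA3 cells. No p-value or model was used, because no cell is tied to a mouse. Intervals are exact Poisson for summed reads and Clopper-Pearson for shares of cells at 95%, and a count of 0 was given a limit of 3 reads over the region. Folds given as at least a value follow from this limit and cover counting error alone. Thinning to 601781 reads used 20 draws with seed 1 for genes detected. No 2 cells agreed within sampling noise (lowest chi-square per degree of freedom 112 in 81 pairs of the same region).

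Alternatives were TMM (edgeR 4.0.16), poscounts (DESeq2 1.42.0), scran 1.30.0 with pools of 10 and 20 cells, CPM without mitochondrial genes, pseudocounts of 0.1 and 10, summed reads, medians, gene filters of 1 and 8 cells, a detection limit of 10 reads, all 21 CA3 cells and each cell left out, in R 4.3.3 and Python 3.11.15 (matplotlib 3.10.9, numpy 2.4.6, scipy 1.17.1, pandas 2.3.3). The 7 CA3 cells with reads on Y chromosome genes were added after seeing the data. Genes were named by a rule: the markers Kit, Lhx6, Npy and Gad1, the 15 largest differences in each direction among genes without overlap, and in each of 36 lists the members without overlap, up to 4 with the largest difference in each direction and a defining marker. The cells, lists and rule were chosen with earlier results of these data known. Positions are from GENCODE vM21 on GRCm38, found for 916 of 922 symbols looked up. On simulated counts, 195 of 200 genes changed by 3 on the log2 scale among 9879 were recovered. Simulated cells varied around 1 mean per gene, and the changed genes were not drawn from the lowest levels. Loss of whole genes from single deep cells was not simulated. The simulation therefore checks the computation and does not measure recovery in these cells.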

Additional observations from a re-analysis of the deposited data

How the results depend on the processing

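The counts of genes without overlap moved with the cells compared. They were 32 on the CA1 side and 26 on the CA3 side, 135 and 44 without N1, 143 and 46 without N2X, and 167 and 85 without N6. Over every cell left out, of CA1 or CA3, they ran from 33 to 167 and from 26 to 85, and the median difference of all genes from -0.75 without N6 to -0.23. With poscounts scaling the counts were 19 and 49, and with only genes read in 8 or more cells 17 and 26 genes were without overlap and 802 were at least 2 higher in CA1. Against all 21 labelled CA3 cells, shallow ones included, 1954 genes were at least 2 higher and 1046 lower in CA1, 19 and 0 were without overlap, the median was -0.0018, and detected genes per cell differed by 344 in place of -723. Against the 7 CA3 cells with Y gene reads, a set chosen after seeing the data, 73 and 107 genes were without overlap. A pseudocount of 0.1 gave 2978 genes at least 2 lower and a median of -0.55, and a pseudocount of 10 gave 517 higher and 476 lower. As ratios of summed reads 3132 genes were at least 2 lower and the median was -0.68, and with medians over cells the median was 0. TMM, scran, CPM without mitochondrial genes and thinning kept every count within 1.5 times.

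Of the 160 described genes past a difference of 2, 120 stayed past it in the same direction with each CA1 cell left out in turn, 144 with each CA3 cell left out, 120 as ratios of summed reads, 127 against all 21 CA3 cells and 157 with poscounts. Of the 30 leading genes 28 stayed with each CA1 cell left out, all but Chchd10 and Puf60. Against all 21 CA3 cells Dlx5, Gabrd, Id2, Calb1, Htr7, Kcnb2, Kcnmb2, Cacnb3, Pcdh19, Rab3b, Cpne8, Gucy1a3, Hsph1 and Ndufa5 no longer reached 2, with differences from -1.71 (Pcdh19) to -0.59 (Id2). Genes whose sign turned were Napa (0.033), Ppp3cb (-0.37), Ndufs1 (0.49), Slc1a2 (-0.89) and C1qb (-0.94) with summed reads, and Scg2 (0.30) and Olig1 (-0.64) against all 21 CA3 cells. With 1 cell left out Gsg1l ran from -0.79 to 3.68, Sparcl1 from -4.06 to 0.19, Napa from -4.92 to 0.078, mt-Nd1 from -4.96 to 0.27 and Olig1 from -0.31 to 3.56. The causes were not tested. No paired analysis was possible because no comparison rests on a test and the numbers tie no CA1 cell to a CA3 cell. Depth limits genes near 0 in N1, where 1 read is worth more CPM than in any other of the 16 cells.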

Other observations

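The hippocampal cells outside the comparison held few reads on the markers. Of the 8 labelled CA3 cells left out, none had a read on Kit and 1 had reads on Lhx6, Npy and Gad1. This cell, N36, held Lhx6 at 1835 CPM and Gad1 at 16384 CPM, and no Kit. Prox1 was read in 2 of the 8 cells. The 2 cells of the dentate gyrus and the NPY-negative cell of CA3 held no read on Kit, Lhx6, Npy or Gad1, with 89297 and 190573 reads in the dentate gyrus cells and 291745 in the NPY-negative cell, so that low levels could not be seen in them. In AC, outside the 10 cells set beside CA1 and CA3, N45 was the only cell with Lhx6 reads, 1302 of them, and it had no Kit read.

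Genes without overlap outside the described lists are given here by example. On the CA3 side Atp5c1, a subunit of the ATP synthase, was at 143, 134 and 102 CPM against 390.3 to 1604 CPM, Cox6b1 of cytochrome c oxidase at 51.5, 45.9 and 108 CPM against 153 to 1017 CPM, Uqcrc2 of complex III at 145, 0 and 152 CPM against 174 to 986 CPM, and Pgk1, phosphoglycerate kinase, at 111, 73.7 and 52 CPM against 137 to 873 CPM. On the CA1 side Astn1, a neuronal adhesion protein of migration, was at 474, 1034 and 636 CPM against up to 459 CPM, and Adgrb1, an adhesion G protein-coupled receptor of synapses, at 101, 59.3 and 58.5 CPM against up to 36.3 CPM. The genes of this paragraph were singled out after their values were seen.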
